A study of Mus musculus with 30 samples.

Results

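Reactive gliosis genes are the genes that retinal Müller glia and astrocytes switch on or raise after injury. The 10 described here are Gfap, Lcn2, Serpina3n, Steap4, Timp1, Cp, S100a6, Socs3, Cebpd and Stat3, chosen by gene symbol, and all 10 were among the 12393 genes measured on the arrays. They had 23 probe sets in all; the brightest one of each gene, by its mean over all arrays, is reported and the others served as a check.

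The study used oxygen-induced retinopathy (OIR) in mouse pups, a model in which high oxygen halts and thins the retinal vessels and the return to room air leaves the retina short of oxygen. RNA of 30 retinas, 1 per pup, was measured in 10 groups of 3. Of these groups, 8 were injected OIR groups: into the vitreous went 10000 CD34+ cells (progenitor cells of the blood lineage), 100000 endothelial colony-forming cells (ECFC), both together (110000 cells, the combination) or saline, each on postnatal day 5 (P5), before the oxygen, or on P12, on return to room air. An uninjected OIR group and a normoxia group, kept in room air, completed the set, and all OIR pups were in 75% oxygen for 5 days from P7. Strain, sex and genotype are not given in the labels used here. Every sample label gives P17 as the stage, whereas the series text pairs injection at P5 with collection at P12, so injection day and collection day cannot be told apart in any comparison of P5 groups with other groups.

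Gliosis in the retina is best known from Müller glia, the radial glia that span it and keep its ions, glutamate and water in balance, and from the astrocytes on its inner surface. Cytokines of the gp130 family, released after injury or hypoxia, activate the kinases of the JAK family, which phosphorylate STAT3. STAT3 then drives its own gene, the feedback inhibitor Socs3, the transcription factor Cebpd, and downstream genes such as the intermediate filament gene Gfap and secreted acute phase proteins.

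STAT proteins bind a palindrome, and the promoters of the members that hold it are shown because Stat3 and genes it is known to drive are among the members. RefSeq windows (GRCm38.p6, 250 bases before to 50 after the gene start, 300 in all) were given for 9 of the 10 members, in 10 windows because Cp has 2 starts; there was none for Cebpd. The STAT motif TTCNNNGAA, which reads the same on both strands and overlaps none of the other motifs, lay in the windows of 3 members, against 8.3% of 32851 promoters. Below, capitals mark that motif, each line is written in the direction of transcription, and the windows are chr11:102897151-102897450 (minus strand) for Gfap, chr11:117969317-117969616 (minus strand) for Socs3 and chr5:7960222-7960521 (plus strand) for Steap4.
Gfap: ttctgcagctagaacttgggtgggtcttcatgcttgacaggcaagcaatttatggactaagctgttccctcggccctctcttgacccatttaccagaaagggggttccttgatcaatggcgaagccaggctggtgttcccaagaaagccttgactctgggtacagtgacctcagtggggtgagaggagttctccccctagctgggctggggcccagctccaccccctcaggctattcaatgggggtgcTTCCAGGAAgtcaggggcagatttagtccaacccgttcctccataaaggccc
Socs3: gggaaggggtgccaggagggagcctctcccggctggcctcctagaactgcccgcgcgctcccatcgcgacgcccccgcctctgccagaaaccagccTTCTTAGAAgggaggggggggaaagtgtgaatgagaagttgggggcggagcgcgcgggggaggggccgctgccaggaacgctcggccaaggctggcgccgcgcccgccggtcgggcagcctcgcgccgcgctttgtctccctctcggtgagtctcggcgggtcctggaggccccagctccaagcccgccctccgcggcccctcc
Steap4: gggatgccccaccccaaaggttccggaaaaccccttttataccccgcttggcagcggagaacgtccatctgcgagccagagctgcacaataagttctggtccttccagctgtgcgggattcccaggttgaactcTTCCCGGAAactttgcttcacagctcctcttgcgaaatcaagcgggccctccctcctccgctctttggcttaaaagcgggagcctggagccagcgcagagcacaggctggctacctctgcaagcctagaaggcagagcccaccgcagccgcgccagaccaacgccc
The first base of the motif lay 2 bases before the annotated start in Gfap, 154 bases before it in Socs3 and 116 bases before it in Steap4. The C/EBP motif, searched as TTGCNNAA on either strand, was in the windows of 3 members (Lcn2, Steap4 and Cp), against 10.8% of promoters. The hypoxia element core ACGTG, on either strand, was in those of 2 members (Timp1 and S100a6), against 19.6%, and the AP-1 motif TGANTCA, on either strand, in that of 1 member (Cp), against 7.81%. A match describes letters in these windows and is not a measured binding site.

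All values are the deposited log2 expression values, and differences are log2 differences ± SE from limma, with p-values adjusted by Benjamini-Hochberg over the 12393 genes, and a gene was called at an adjusted p under 0.05. Array medians ran from 8.16 to 8.49, and the r between replicates over all probe sets was 0.964 or more. The rod genes, 6 measured, which define the labelled tissue, averaged 13.25 to 13.40 in every group. Precision is limited by the 3 retinas of each group. The 18 hybridisation control probe sets averaged 13.30 to 13.52 in the P12 groups, against 12.22 to 12.70 in the other groups, so that array handling and P12 injection cannot be told apart when a P12 group is set against any other. Lens genes (15 measured) averaged 9.30 to 12.53 in the P5 groups and 6.07 to 7.22 in the other groups. Nothing in the labels says that the 3 pups of a group came from separate litters, so p-values measure the spread between these retinas only. In whole retinas, more glia and more RNA per glial cell cannot be told apart.

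The members were lowest in normoxia without exception: in all 10, the normoxia group had the lowest mean of the 10 groups. The P5 CD34+ group had the highest mean for 8 members, and the P12 saline group for Gfap and Stat3. The share of all genes ranked in these ways was not counted. The members also varied together within groups, so they are not separate observations. Between neighbouring groups in these orders, however, the gaps were mostly within error: in 9 of 10 members no gap between neighbours exceeded 2 SE. S100a6 alone had such gaps, 2 of them, the larger being the 1.77 between the P5 CD34+ and P12 saline means. The plot of all values shows how often a single retina set a group's mean.

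**Figure D1:**
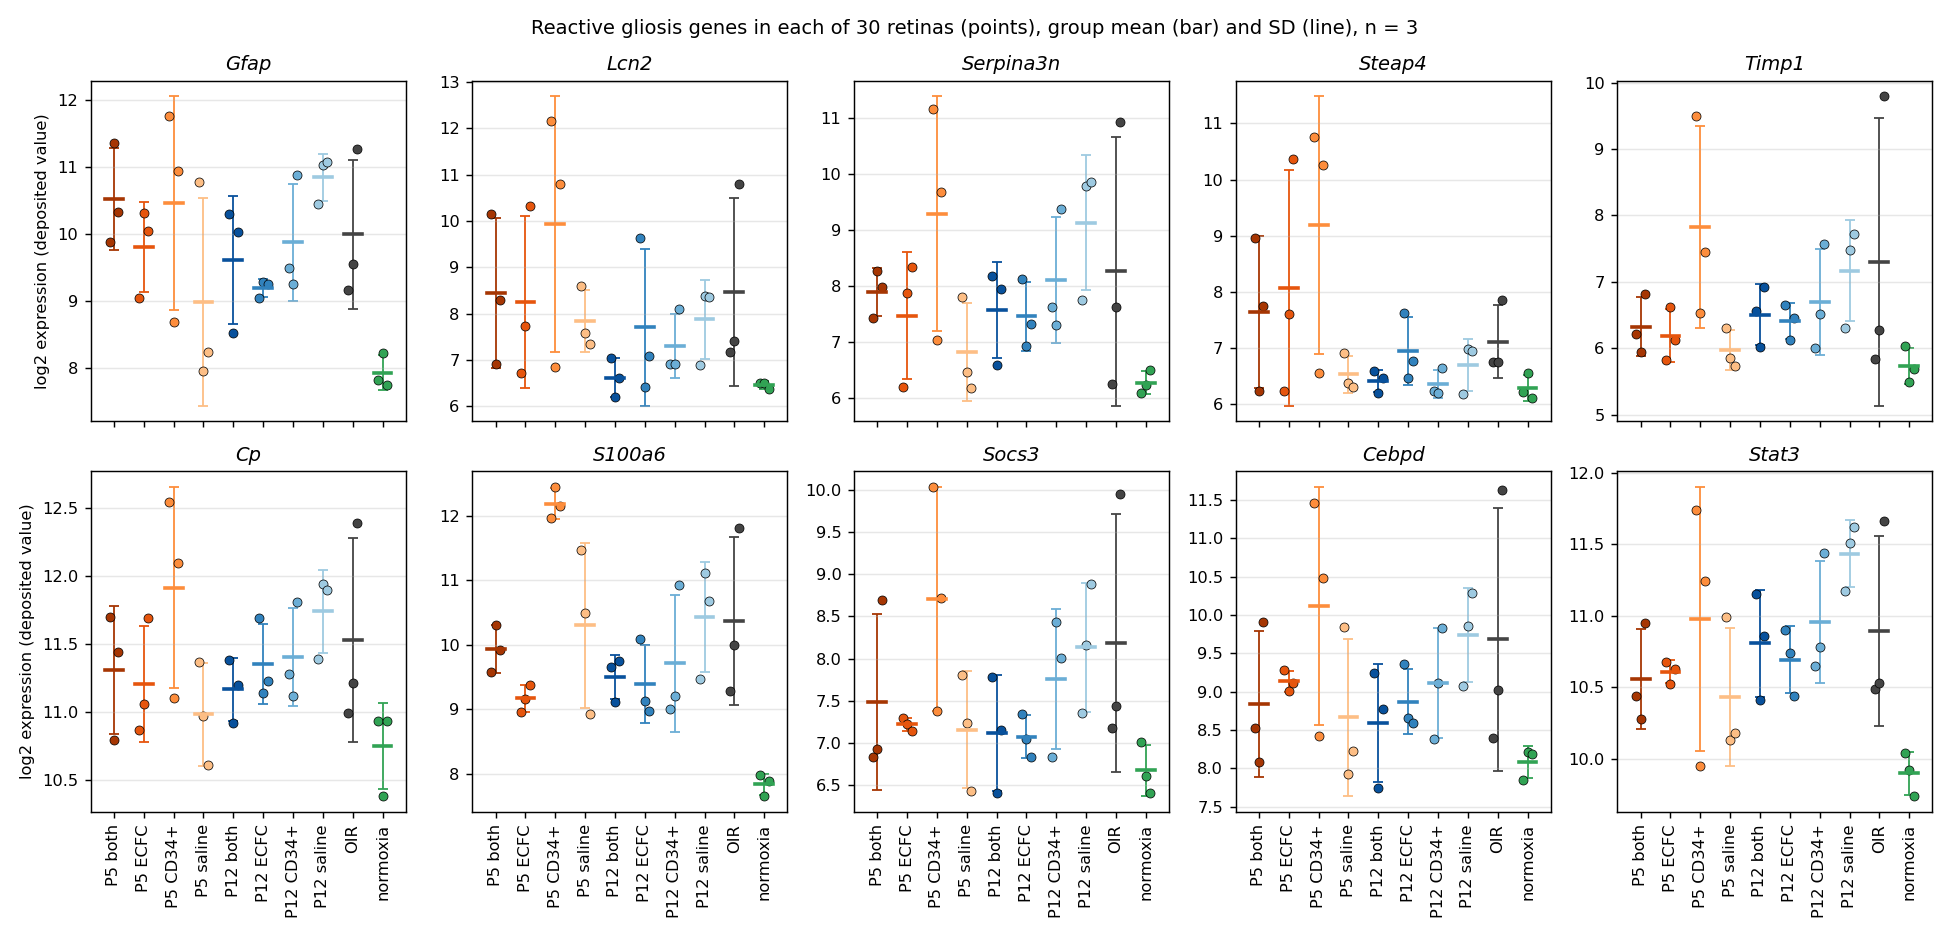
Deposited log2 expression (vertical axis) of the 10 members in each retina (points), with the group mean (bar) and SD (line, n = 3), for the 10 groups along the horizontal axis; "both" stands for the combination of ECFC and CD34+ cells. Normoxia has the lowest mean in every panel, and in most OIR groups the 3 retinas of a group are far apart.

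Gfap codes for the intermediate filament of reactive glia, and its induction in Müller cells is the usual sign of gliosis. In OIR retinas it was at 9.17, 9.55 and 11.27, against 7.82, 8.23 and 7.75 in normoxia retinas. In P12 saline retinas it was at 10.45, 11.03 and 11.08, and in P5 saline retinas at 10.78, 7.96 and 8.24. All OIR and P12 saline retinas were above every normoxia retina, whereas the P5 saline values included 1 high retina and 2 within or just above the normoxia range. Against normoxia, Gfap rose by 2.92 ± 0.72 in P12 saline retinas (7.55-fold, adjusted p = 0.00377). The difference was 2.06 ± 0.72 in untreated OIR (adjusted p = 0.103) and 1.06 ± 0.72 in P5 saline (adjusted p = 0.41), neither of which passed.

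Stat3, the transcription factor at the centre of the cascade, was at 10.49, 10.53 and 11.66 in OIR retinas, against 10.04, 9.92 and 9.74 in normoxia retinas. P12 saline retinas had 11.17, 11.51 and 11.62, and P5 saline retinas 10.99, 10.13 and 10.18. None of these 3 OIR groups overlapped normoxia. Stat3 rose by 1.53 ± 0.35 in P12 saline against normoxia (2.89-fold, adjusted p = 0.00198), and the difference was 0.99 ± 0.35 in untreated OIR (adjusted p = 0.106). P5 saline retinas were all below P12 saline retinas, and Stat3 was the member that passed there, lower by -1.0 ± 0.35 (adjusted p = 0.0348). That call was lost with the mean of the lens genes as a covariate (-0.43, adjusted p = 0.589), with the next Stat3 probe set (-0.89, adjusted p = 0.0638), and without P12 saline replicate 2 or 3 or P5 saline replicate 2 or 3 (-0.96 to -0.85).

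Socs3, which inhibits the kinases upstream of STAT3, and Cebpd, a transcription factor of the acute phase response, followed Stat3 from retina to retina. Socs3 was at 7.18, 7.44 and 9.95 in OIR retinas, against 7.01, 6.61 and 6.41 in normoxia. Cebpd was at 8.40, 9.02 and 11.63 in OIR retinas, against 7.85, 8.22 and 8.19 in normoxia. In both genes every OIR retina exceeded every normoxia retina, and OIR replicate 3 was by far the highest of the 3. The differences of 1.52 ± 0.66 for Socs3 (adjusted p = 0.198) and 1.60 ± 0.72 for Cebpd (adjusted p = 0.215) did not pass. Neither did those of P12 saline against normoxia, 1.46 for Socs3 (adjusted p = 0.105) and 1.65 for Cebpd (adjusted p = 0.0926). The next probe set of each gene did pass there, at 1.99 for Socs3 (adjusted p = 0.0377) and 2.07 for Cebpd (adjusted p = 0.0483). Both genes also passed when only these groups were fitted (adjusted p = 0.0136 and 0.00375), and in no other alternative.

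Of the secreted proteins, Serpina3n, a serine protease inhibitor of reactive astrocytes, was at 7.74, 9.79 and 9.86 in P12 saline retinas, 6.24, 7.63 and 10.92 in OIR retinas, and 6.09, 6.23 and 6.50 in normoxia retinas. It rose by 2.85 ± 0.96 in P12 saline against normoxia (7.23-fold, adjusted p = 0.029). Untreated OIR overlapped normoxia, since OIR replicate 1 lay within the normoxia range, and the difference of 1.99 ± 0.96 did not pass (adjusted p = 0.252). Cp, ceruloplasmin, a copper-carrying ferroxidase that glia need to export iron, was at 11.39, 11.94 and 11.90 in P12 saline retinas, against 10.93, 10.38 and 10.93 in normoxia retinas. Cp rose by 1.0 ± 0.35 (2.0-fold, adjusted p = 0.0374), with no overlap. Both calls were fragile: each was lost without P12 saline replicate 2 or 3 and without any 1 of the normoxia retinas, with log2 differences of 2.49 to 2.97 for Serpina3n and 0.82 to 1.09 for Cp.

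Lcn2, lipocalin-2, which binds bacterial iron carriers and is secreted by reactive astrocytes and by neutrophils, was at 7.17, 7.41 and 10.80 in OIR retinas, against 6.49, 6.51 and 6.37 in normoxia retinas. Its normoxia retinas were the most alike of any member (SD 0.078), while the OIR retinas had an SD of 2.03. Timp1, the inhibitor of matrix metalloproteinases that astrocytes secrete, was at 5.84, 6.28 and 9.79 in OIR retinas, against 6.03, 5.49 and 5.69 in normoxia retinas, which overlap. The differences, 2.0 ± 1.13 for Lcn2 (adjusted p = 0.333) and 1.56 ± 0.72 for Timp1 (adjusted p = 0.225), did not pass. In both genes OIR replicate 3 was more than 3 log2 units above the other 2 OIR retinas.

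S100a6, a small calcium-binding protein of reactive astrocytes and many other cells, was called in 5 of the 17 comparisons, more than any other member. It was at 9.28 in OIR replicate 1 and 11.81 in OIR replicate 3, with replicate 2 between them, 9.47, 11.12 and 10.68 in P12 saline retinas and 11.47, 10.50 and 8.93 in P5 saline retinas, against 7.97, 7.65 and 7.88 in normoxia retinas. Every OIR retina of any group, 27 of 27, exceeded the highest normoxia retina. Against normoxia it rose by 2.53 ± 0.58 in untreated OIR (5.78-fold, adjusted p = 0.0106), by 2.59 ± 0.58 in P12 saline (adjusted p = 0.00175) and by 2.47 ± 0.58 in P5 saline (adjusted p = 0.0108). The first of these was 1.81 and not called without OIR replicate 3 (adjusted p = 0.126). The third was not called without P5 saline replicate 1 (1.88, adjusted p = 0.0722) or with the lens mean as a covariate (1.93, adjusted p = 0.147).

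Steap4, a metalloreductase that reduces iron and copper at the membrane, had the highest adjusted p of the members between untreated OIR and normoxia. It was at 6.74, 6.74 and 7.86 in OIR retinas, against 6.22, 6.55 and 6.10 in normoxia retinas, a difference of 0.82 ± 0.85 (adjusted p = 0.617). In P12 saline retinas it was at 6.17, 6.98 and 6.94, which overlapped normoxia. Its 4 highest values, 8.95 to 10.75, were all in retinas given cells at P5.

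**Figure D2:**
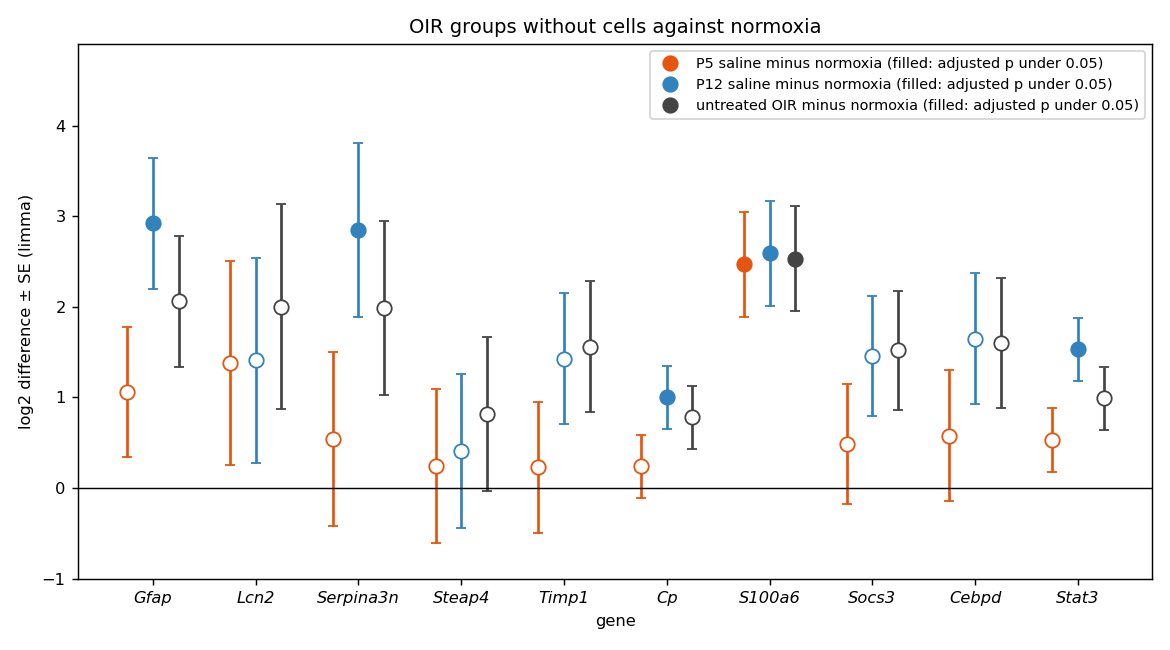
Log2 difference ± SE (limma, n = 3 retinas a group) of each member in P5 saline, P12 saline and untreated OIR retinas minus normoxia retinas. All differences are above 0; filled points, 5 for P12 saline and 1 for each of the other groups, have an adjusted p under 0.05.

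Counted together, 1 of 10 members rose in untreated OIR against normoxia, where 3.59% of all genes were called higher and 0.968% lower. In P12 saline against normoxia 5 rose, where 9.93% of genes were called higher and 17.6% lower, and in P5 saline against normoxia 1 rose, where 3.91% were called higher and 4.2% lower. Scaling moved the balance of calls over all genes: of the genes called between untreated OIR and normoxia, 78.8% were higher, and this became 64.5% with quantile-normalized and 53.2% with median-centred arrays. For P12 saline against normoxia these shares were 36.1%, 47.5% and 42.4%. For P5 saline against normoxia they were 48.2%, 40.8% and 33.3%. No called member changed direction under either scaling. The median log2 difference of the members was 1.58 in untreated OIR, 1.49 in P12 saline and 0.53 in P5 saline, beside medians over all genes of -0.02, -0.04 and 0.02. The first of these rested on OIR replicate 3: without it the members' median was 0.63 in untreated OIR, with all 10 differences still positive. Without P5 saline replicate 1 the median in P5 saline was 0.11, and without replicate 3 it was 0.82. In P12 saline, leaving out any 1 retina gave 1.27 to 1.88. Every OIR retina was above every normoxia retina for 8 of 10 members, where 12.9% of all genes showed this, and the exceptions were Serpina3n and Timp1. For P12 saline it was 9 of 10, where 17.5% of genes did, and the exception was Steap4. For P5 saline it was 3 of 10, Lcn2, S100a6 and Stat3, where 13.5% of genes did.

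Markers of other cells and a sign of RNA quality moved in the same comparisons. In untreated OIR against normoxia, 5 of 8 endothelial genes rose, 4 of 8 fibroblast genes and 3 of 11 microglial genes, and 0 of these fell. The mean of the microglial genes was 7.59 to 7.72 in OIR retinas, against 6.89 to 6.95 in normoxia retinas. The fibroblast mean was 7.75 to 8.41 in OIR retinas, against 7.11 to 7.31 in normoxia retinas, and the endothelial mean 9.48 to 9.58, against 8.54 to 8.71. All 3 means separated the groups, as they did for P12 saline, where again 5, 4 and 3 genes of these lists rose against normoxia. In P5 saline against normoxia 1 endothelial, 1 fibroblast and 0 microglial genes rose, beside 14 of 15 lens genes. The Gapdh control, as the log2 signal of its 3' minus its 5' probe set, was 1.04 to 1.18 in P12 saline retinas and 1.23 to 1.45 in OIR retinas, against 1.39 to 1.85 in normoxia retinas. P12 saline thus lay below normoxia without overlap in this measure, whereas the same measure of the actin control overlapped (-0.27 to -0.13 in P12 saline, against -0.30 to -0.07 in normoxia). Over the 30 arrays, the r of the members with the Gapdh measure ran from -0.59 for Stat3 to 0.05 for Steap4, and within groups from -0.44 to -0.15. The part of these markers and of RNA quality in the members' differences was not tested.

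The saline groups were then set against uninjected OIR and against each other. P12 saline against untreated OIR called 0 members, where 5.95% of genes were called higher and 15.4% lower, and 0 members had an unadjusted p under 0.05, among 4170 genes. The share of calls that were higher, 27.9%, was 47.7% with quantile-normalized and 51.6% with median-centred arrays. P5 saline against untreated OIR likewise called 0, where 3.81% were called higher and 4.88% lower, with 0 members among the 2993 genes under an unadjusted p of 0.05, although all 10 differences were negative. Their median was -0.81, and -0.10 without OIR replicate 3, where 2 of 10 were positive. Leaving out any other 1 retina gave -1.34 to -0.52. The intervals were wide: for Gfap, the 95% interval of the difference from untreated OIR was -0.65 to 2.36 in P12 saline and -2.51 to 0.50 in P5 saline. P5 saline against P12 saline called 1 member lower, Stat3, where 19.2% of genes were called higher and 8.57% lower. Of all calls there, 69.1% were higher, or 50.2% with quantile-normalized and 51.4% with median-centred arrays. Gfap (-1.86 ± 0.72, adjusted p = 0.0577) and Serpina3n (-2.32 ± 0.96, adjusted p = 0.0761) came next and did not pass, and in both the high retina was P5 saline replicate 1.

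The spread between retinas of one group was the main feature of these genes. The within-group SD ran from 0.459 for Stat3 and 0.462 for Cp to 1.5 for Lcn2, where the median gene had 0.18, and all 10 members lay between percentiles 96.7 and 99.8 of all genes by this SD. It differed by group. The members' median SD was 1.41 in untreated OIR and 1.54 in P5 CD34+, against 0.221 in normoxia, while the median SD of all genes was 0.123, 0.188 and 0.167 in the same groups.

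The members were high or low together within groups. OIR replicate 3 was above its group's mean for 10 of 10 members, and OIR replicates 1 and 2 for 0. P12 saline replicates 2 and 3 were above theirs for 10 members each and replicate 1 for 0. P5 saline replicate 1 was above its group's mean for 10, P12 CD34+ replicate 3 for 10, and P5 CD34+ replicate 2 for 1, S100a6. Over the array set, P5 CD34+ replicate 1 held the highest value of 7 members, OIR replicate 3 that of 2 (Timp1 and Cebpd) and P5 CD34+ replicate 2 that of S100a6.

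**Figure D3:**
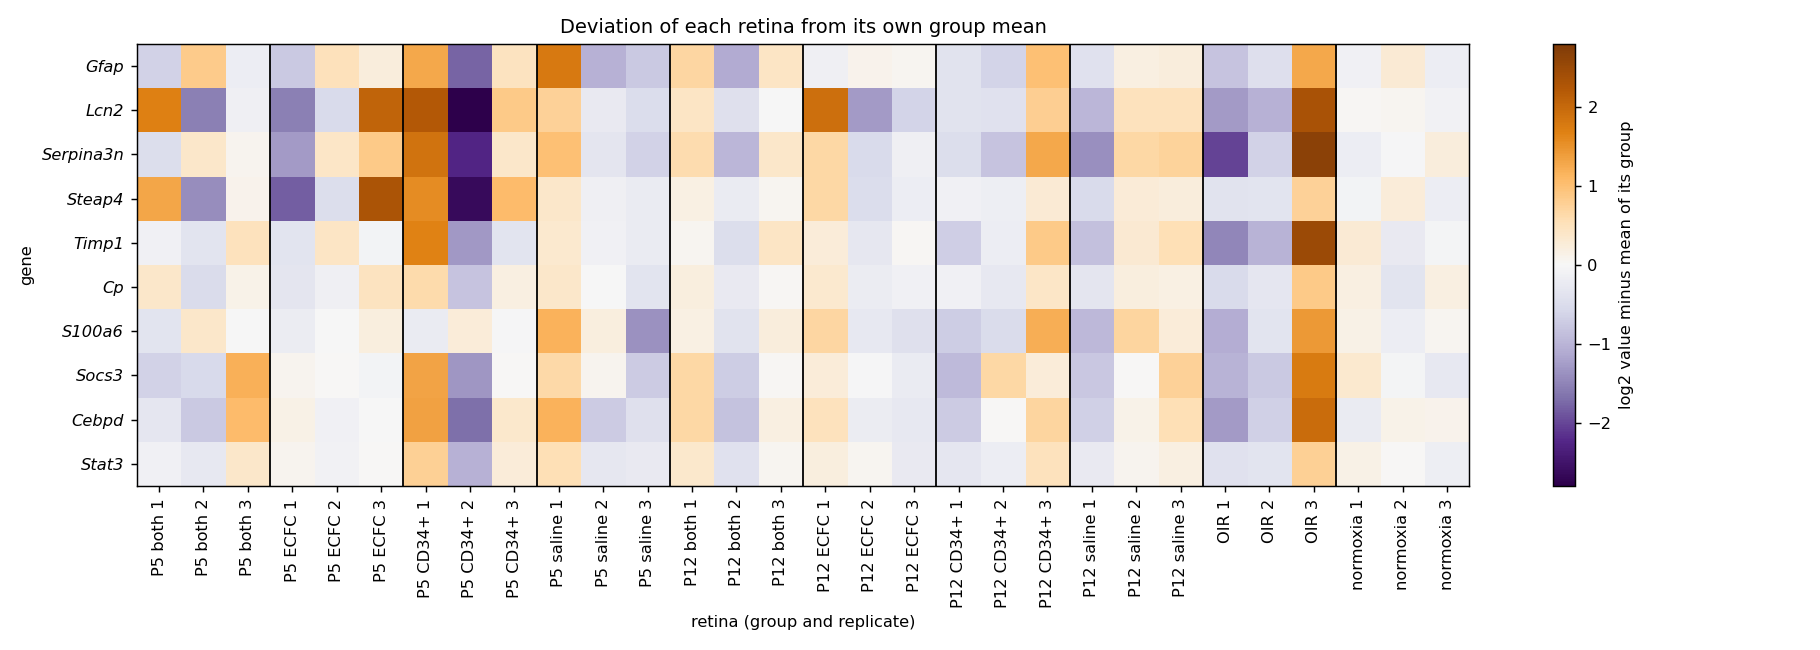
Log2 value of each retina minus the mean of its own group (colour, orange above and purple below), for 10 members (vertical) and 30 retinas (horizontal, lines between groups; "both" is the combination). OIR replicate 3 is orange in all 10 members, P5 CD34+ replicate 2 is purple in all but S100a6, and the normoxia retinas are pale.

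As a description of 30 retinas from 10 shared groups, deviations from the group mean correlated between members with a median r of 0.73 over 45 pairs (0.18 to 0.95), and 40 pairs had an r over 0.5. The closest pairs were Cebpd with Stat3 (0.95), Lcn2 with Cp (0.93), Lcn2 with Steap4 (0.92) and Cebpd with Socs3 (0.91). The loosest was Steap4 with S100a6 (0.18), and the other pairs of S100a6 ran from 0.43 to 0.68. Each pair shares the library and its quality measures.

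Some retinas were high in some members and not in others. P5 ECFC replicate 3 had 10.37 for Steap4 and 10.32 for Lcn2, among the highest retinas for both, but 7.14 for Socs3 and 6.12 for Timp1, both just above the highest normoxia retina. P5 CD34+ replicate 1 was high in all 4, with 10.75 for Steap4, 12.15 for Lcn2, 10.03 for Socs3 and 9.50 for Timp1. P5 CD34+ replicate 2, at 12.45 the highest retina for S100a6, had 8.69 for Gfap, 6.84 for Lcn2 and 9.95 for Stat3, the last within the normoxia range.

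**Figure D4:**
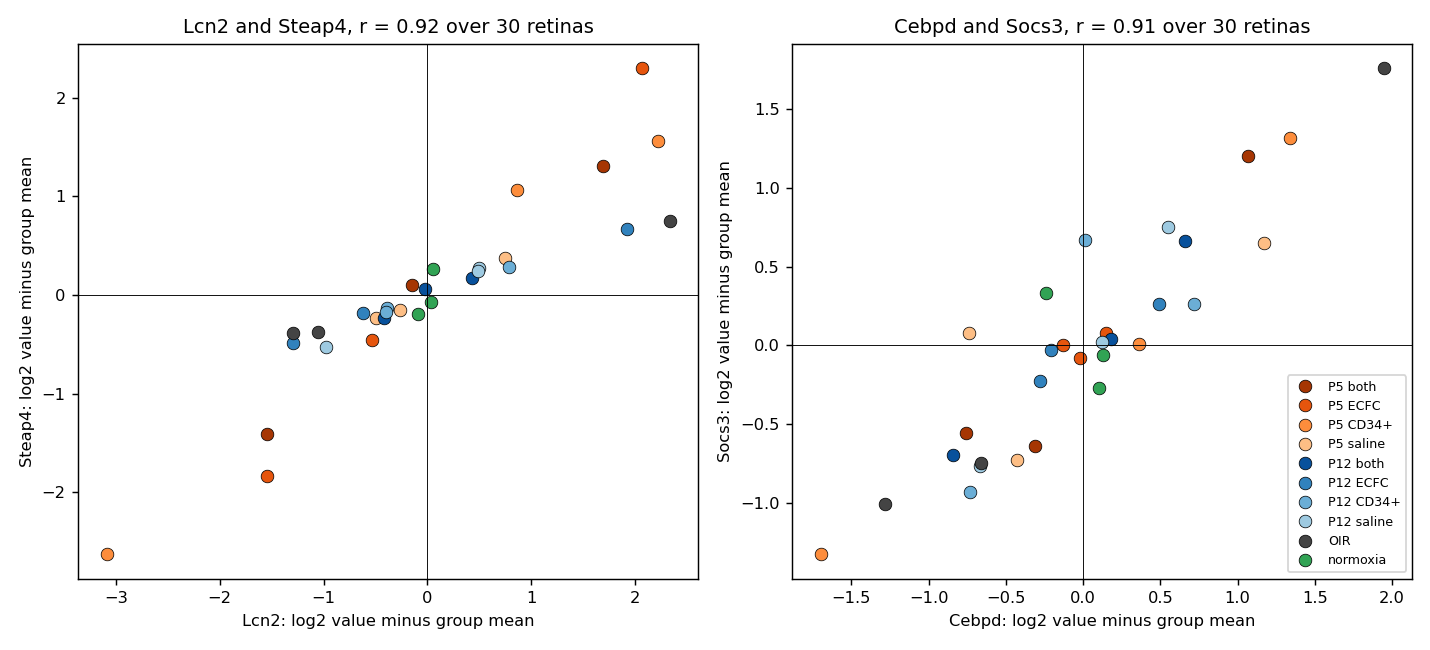
Deviation of each retina from its group mean on the log2 scale for Lcn2 (horizontal) against Steap4 (vertical), left, and Cebpd against Socs3, right, with 1 point per retina coloured by group ("both" is the combination). The within-group r is 0.92 and 0.91, and P5 ECFC replicate 3 is at the upper right on the left and near 0 on the right.

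Markers of other cells varied along with some of these retinas. The mean of 11 microglia and macrophage genes was 9.23 in P5 CD34+ replicate 1, against 7.39 in replicate 2, and Cd68, a lysosomal protein of phagocytes, was 10.38 in replicate 1 against 6.81 in replicate 2. OIR replicate 3 had 7.78 for Cd68, against 7.13 and 7.33 in OIR replicates 1 and 2, and 9.76 for Csf1r, a receptor that microglia need, against 10.30 and 10.29. Within groups the r with the microglial mean was 0.43 to 0.73 for 9 members and 0.16 for S100a6. The mean of 9 neutrophil genes was not highest where Lcn2 was highest. It was 6.04 in P12 ECFC replicate 1, which had the highest Lcn2 of any P12 retina (9.62), against 6.12 in P12 ECFC replicate 2, where Lcn2 was 6.41, and it was 4.99 in P5 CD34+ replicate 1, at the top for Lcn2 (12.15). S100a9 and S100a8 peaked in P12 ECFC replicate 1, at 9.30 and 7.03, and the other 7 neutrophil genes peaked in other retinas. The neutrophil mean was near the floor, as the Y-linked gene Uty read up to 5.41 in retinas that high Xist marked as female. It was 5.34 to 6.12 in P12 retinas and 4.89 to 5.59 in the others, so P12 and P5 values cannot be told apart from array handling. The part of these cells in the members' values was not tested.

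Cells against saline were compared within each injection day. At P12, the 3 cell groups gave mostly negative differences and called 0 members. All 3 were set against the same P12 saline retinas, and the members varied together, so the signs below are not separate results. The members' median log2 difference was -0.97 for the combination (10 of 10 negative), -0.81 for ECFC (9 negative) and -0.52 for CD34+ cells (10 negative), beside -0.02, 0.02 and 0.05 over all genes. The CD34+ median was -0.93 without P12 saline replicate 1 or P12 CD34+ replicate 3, -0.34 without P12 saline replicate 3 and -0.30 without P12 CD34+ replicate 1. Leaving out any 1 retina gave -1.40 to -0.68 for the combination and -1.19 to -0.62 for ECFC. Over all genes, the combination and CD34+ cells called 0% each and ECFC 0.0161%. At an unadjusted p under 0.05 there were 0, 2 and 0 members in these groups, among 1226, 1996 and 643 genes.

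The 2 members under ECFC were Gfap and Stat3. Gfap was at 9.05, 9.29 and 9.25 in P12 ECFC retinas, against 10.45, 11.03 and 11.08 in P12 saline retinas, so that every ECFC retina was below every saline retina. The difference of -1.65 ± 0.72 had a 95% interval of -3.16 to -0.15 but an adjusted p of 0.271. Stat3, at 10.90, 10.74 and 10.44 in P12 ECFC retinas against 11.17, 11.51 and 11.62 in P12 saline retinas, did not overlap either (-0.74 ± 0.35, adjusted p = 0.3). Neither did Socs3, with 7.34 in the highest ECFC retina and 7.36 in the lowest saline retina (-1.06 ± 0.66, adjusted p = 0.416). The share of all genes without overlap was not counted for the P12 cell groups. Gfap in the other cell groups overlapped P12 saline for CD34+ cells (9.50, 9.26 and 10.88) and was below it for the combination (10.30, 8.52 and 10.03), with adjusted p-values of 0.925 and 0.531.

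At P5 the differences from saline were mostly positive, and here too the cell groups shared the same saline retinas. The combination called 0 members and ECFC 0, where 0% of all genes were called in either, with median differences of 0.34 and 0.32 and 9 of 10 positive in each. At an unadjusted p under 0.05 there were 1 and 0 members, among 978 and 779 genes. CD34+ cells called 1 member higher, S100a6, where 3.07% of genes were called higher and 5.4% lower, and all 10 differences were positive with a median of 1.70, beside -0.03 over all genes. Without P5 CD34+ replicate 1 that median was 0.93. For the combination it was 0.19 to 0.70 and for ECFC 0.14 to 0.62 when any 1 retina was left out.

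S100a6 was at 11.97, 12.45 and 12.15 in P5 CD34+ retinas, against 11.47, 10.50 and 8.93 in P5 saline retinas. It rose by 1.89 ± 0.58 (3.70-fold, adjusted p = 0.0451) with no overlap. Every CD34+ retina was above every saline retina for 2 of 10 members, S100a6 and Timp1, where 7.42% of all genes showed this. Timp1 was not called (1.86 ± 0.72, adjusted p = 0.113). Leaving out P5 CD34+ replicate 1, 2 or 3 or P5 saline replicate 2 or 3 ended the call, with differences of 1.20 to 2.0 and adjusted p-values of 0.0772 to 0.256. Fitting only these groups also ended it (adjusted p = 0.349), as did a trend with robust moderation (0.0614).

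Steap4 had the largest difference in that comparison and just missed. It was at 10.75, 6.56 and 10.26 in P5 CD34+ retinas, against 6.91, 6.38 and 6.30 in P5 saline retinas. Replicates 1 and 3 of the CD34+ group were far above all saline retinas and replicate 2 was among them. The difference was 2.66 ± 0.85 (adjusted p = 0.0533).

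The same retina, P5 CD34+ replicate 2, was low for 9 members, and without it 9 members were called. Steap4 was then higher by 3.98 (adjusted p = 0.00117), Lcn2 by 3.64 (adjusted p = 0.0282), Serpina3n by 3.60 (adjusted p = 0.0157) and Gfap by 2.36 (adjusted p = 0.0317), whereas S100a6 was no longer called (1.76, adjusted p = 0.0918). Without replicate 1 the differences were 1.88 for Steap4, 0.98 for Lcn2 and 1.54 for Serpina3n, with 0 members called. The share of all genes called was not counted in these fits. Replicate 2 was named for its low values in 9 members, and leaving it out raised the group means of those members.

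The P5 CD34+ retinas differed in other tissues' markers too. Of 9 measured pigment epithelium genes 4 rose against P5 saline, of 8 fibroblast genes 5 and of 11 microglial genes 3. The pigment epithelium mean was 10.35 to 10.80 in P5 CD34+ retinas, against 8.36 to 10.29 in P5 saline retinas, and the fibroblast mean 8.67 to 9.12, against 7.33 to 8.08. The corneal and ciliary epithelium mean peaked at 8.63 in P5 CD34+ replicate 2. The lens mean was 7.51 in P5 CD34+ replicate 1, against 13.99 and 13.88 in replicates 2 and 3 and 10.73 to 13.67 in P5 saline retinas. Replicate 1, which held the highest value of 7 members, also had the lowest hybridisation control mean of any array (11.86). The part of these tissues and of array handling was not tested, either in the members' values or in S100a6, which fibroblasts and epithelia also express.

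Adding ECFC to CD34+ cells was tested on each day. At P5, the combination against CD34+ cells called 1 member lower, where 4.27% of genes were called higher and 3.56% lower: S100a6 was at 9.57, 10.31 and 9.92 in P5 combination retinas, against 11.97, 12.45 and 12.15 in P5 CD34+ retinas. All combination retinas were lower, by -2.26 ± 0.58 (adjusted p = 0.018), and the call was lost without P5 combination replicate 1 (-2.07, adjusted p = 0.0792). The share of all genes without overlap was not counted here. Markers of other tissues were lower along with it: 5 of 9 pigment epithelium genes and 2 of 7 corneal and ciliary epithelium genes fell, with all 9 and all 7 differences negative, and the 8 fibroblast differences were negative with 0 called. The pigment epithelium mean was 7.72 to 9.32 in P5 combination retinas, against 10.35 to 10.80 in P5 CD34+ retinas, and the corneal and ciliary mean 6.88 to 6.99, against 7.08 to 8.63. The fibroblast mean was 7.77 to 8.79 in P5 combination retinas, against 8.67 to 9.12 in P5 CD34+ retinas. Their part in the S100a6 difference was not tested. Of the 10 members, 9 had negative differences here, with a median of -1.34, beside -0.01 over all genes. Without P5 CD34+ replicate 1 that median was -0.51, and without P5 CD34+ replicate 2 it was -2.13. At an unadjusted p under 0.05 there were 2 members, among 2494 genes. The exception in sign was Gfap, with a difference of 0.06 ± 0.72 and a 95% interval of -1.45 to 1.56. At P12, the combination against CD34+ cells called 0 members and 0% of genes, with 0 members among the 561 genes under an unadjusted p of 0.05.

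The differences from saline at P5 and at P12 were compared directly. The difference between days (P5 minus P12) called 0 members for the combination, where 0% of all genes were called, 0 for ECFC, where 0.0323% were, and 0 for CD34+ cells, where 1.9% were. At an unadjusted p under 0.05 there were 1, 1 and 6 members. For CD34+ cells the members' median was 2.39 (1.52 without P5 CD34+ replicate 1), all 10 were positive, and S100a6 (2.60 ± 0.82, adjusted p = 0.0963) and Serpina3n (3.50 ± 1.36, adjusted p = 0.179) came nearest. Without P5 CD34+ replicate 2, 5 members passed: Gfap, Serpina3n, Steap4, Cp and Stat3. The share of all genes that passed in that fit was not counted.

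**Figure D5:**
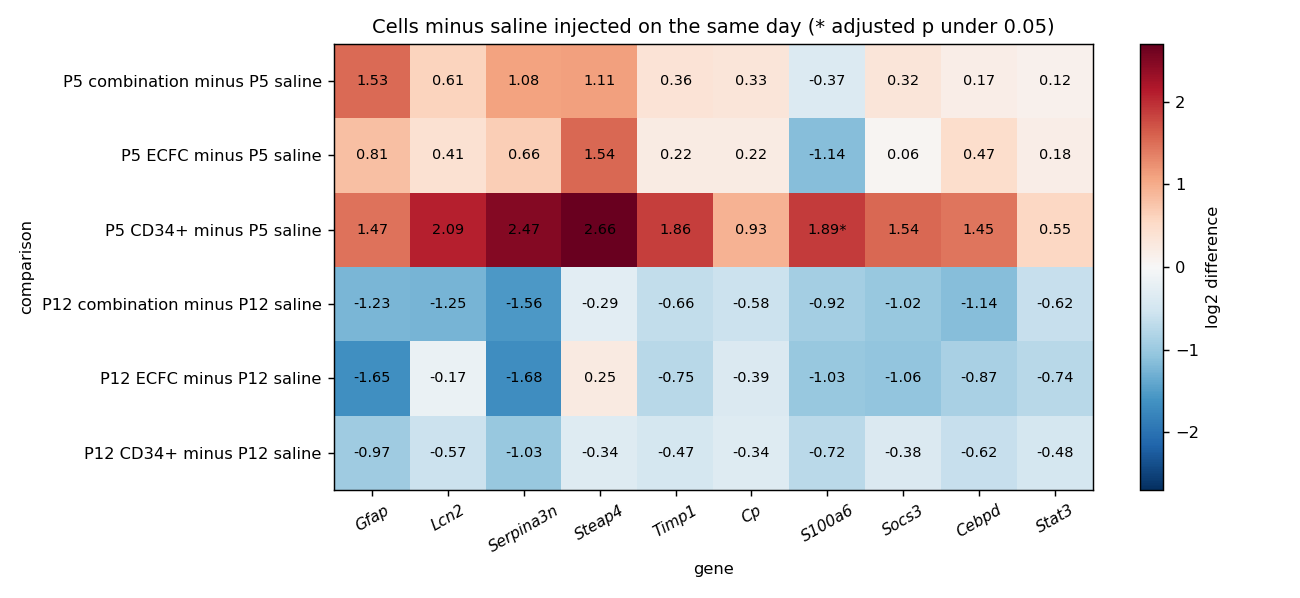
Log2 difference (colour and number) of each member (columns) between retinas given cells and retinas given saline on the same day (rows, n = 3 retinas a group). The P12 rows are below 0 except for Steap4 with ECFC, and the P5 CD34+ row is above 0 throughout; the asterisk, S100a6 with CD34+ cells at P5, marks the adjusted p under 0.05.

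Other genes of the pathway were read from lists. Of 26 measured genes otherwise known from reactive astrocytes, 4 rose and 0 fell in untreated OIR against normoxia (15.4%, beside the 3.59% of all genes called higher), among them the filament gene Nes (1.62 ± 0.26, adjusted p = 4.4e-04), the membrane protein gene Emp1 (1.84 ± 0.34, adjusted p = 0.0017) and the sphingosine phosphate receptor gene S1pr3 (0.64 ± 0.18). In P12 saline 10 rose (38.5%, beside 9.93% of all genes) and 0 fell. The list's median was 0.54 in untreated OIR and 0.63 in P12 saline. With CD34+ cells at P5, 4 rose against saline (15.4%, beside 3.07% of all genes) and 0 fell, including Emp1 (1.99 ± 0.34) and the complement inhibitor gene Serping1 (2.24 ± 0.63). Emp1 was also the member of this list whose difference passed between days (2.31 ± 0.48, adjusted p = 0.0266).

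Of 23 measured genes of gp130 signalling, 0 rose and 0 fell in untreated OIR. In P12 saline against normoxia 3 rose and 3 fell, 13% each way, which is near the 9.93% higher and 17.6% lower of all genes. The kinase gene Jak1 was higher by 0.82 ± 0.10 (adjusted p = 2.9e-06) and Osmr, the oncostatin M receptor gene, by 1.70 ± 0.47 (adjusted p = 0.00818), while the phosphatase gene Ptpn11 fell by 0.32. With CD34+ cells at P5, 2 rose and 3 fell (8.7% and 13%, beside 3.07% and 5.4% of all genes), the falls being Cntfr, the receptor of ciliary neurotrophic factor (-0.58 ± 0.11), Jak1 (-0.46 ± 0.10) and Socs2, a feedback inhibitor (-0.72 ± 0.15). The direction of Jak1 thus differed between these comparisons. Its group means were 10.53 to 10.80 in the P12 groups and 9.64 to 10.16 in all other groups, untreated OIR being at 10.16 and normoxia at 9.98. Array handling and P12 injection cannot be told apart in its P12 saline difference.

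Müller glia genes of the resting state were lower in part. Of 17 measured, 1 rose and 2 fell in untreated OIR (5.88% and 11.8%, beside 3.59% and 0.968% of all genes): the water channel gene Aqp4 by -0.87 ± 0.17 and the transporter gene Abca8a by -0.85 ± 0.18, while Sox9, a transcription factor of Müller cells, rose by 0.63 ± 0.17. In P12 saline 8 fell (47.1%, beside 17.6% of all genes) and 1, Sox9, rose by 1.22 ± 0.17. One of the falls, Apoe, was also lower in P12 saline than in untreated OIR (-1.64 ± 0.26, adjusted p = 9.4e-05). Its group means were 9.76 to 10.11 in the P12 groups and 11.15 to 11.93 in all other groups. Array handling and P12 injection cannot be told apart in these P12 saline differences. Of 7 retinal astrocyte genes 1 rose in untreated OIR (14.3%, beside 3.59%), Pdgfra, the growth factor receptor by which astrocytes are recognised (0.61 ± 0.15). Pdgfra was also on the fibroblast list and is among the fibroblast genes counted above as risen, so its cell source cannot be told here.

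Lists near the effector members were read for untreated OIR against normoxia. Of 11 genes of NF-kB signalling 3 rose (27.3%, beside 3.59% of all genes): the adhesion gene Icam1 by 1.06 ± 0.24, Il1r1, the interleukin-1 receptor gene, by 0.83 ± 0.24 and Relb, a subunit of NF-kB, by 0.57 ± 0.14. Of 12 genes of iron and copper handling, the pathway of Cp and Steap4, 1 fell (8.33%, beside 0.968% of all genes), Hamp, the iron hormone hepcidin (-0.96 ± 0.25). Of 9 metalloproteinase and inhibitor genes, beside Timp1, 1 rose (11.1%, beside 3.59%), the membrane protease gene Mmp14 (1.11 ± 0.17).

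The genes whose pattern over the 30 arrays was most like the mean of the members were Pdpn (r = 0.950), which codes for podoplanin, A2m (0.935), the protease inhibitor alpha-2-macroglobulin, Pmvk (0.911), Pcolce (0.901), Lrrc2 (0.895), Atf3 (0.891), a stress-induced transcription factor, Antxr2 (0.891) and Myof (0.886). A2m averaged 10.24 in P5 CD34+, 9.33 in P12 saline and 8.83 in untreated OIR, against 7.27 in normoxia. Pdpn had a narrower range, 12.34, 12.09 and 12.02, against 11.67.

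The other probe sets of a gene gave a check of the values. The next Gfap probe set followed the first with r = 0.961 over 30 arrays, those of Socs3 with 0.970 and 0.905, that of Cebpd with 0.981 and the next of Stat3 with 0.915. The last of 3 Stat3 probe sets was loose (0.381), as were the dimmest of 7 for Cp (0.571) and the next for Steap4 (0.754). Lcn2, Serpina3n, Timp1 and S100a6 had 1 probe set each.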

How the data were processed

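Total RNA of single retinas was amplified, biotin-labelled and hybridised to 1 array each, per the labels' protocols. The table deposited by the authors holds log2 expression values of 22690 probe sets on 30 arrays. The submitters' processing notes name Partek, with no version; how background, summarisation and normalization were done was not given in the sources used here, and the values were not rescaled.

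The platform annotation, updated to RefSeq symbols, gave 1 gene to 20380 probe sets, several to 691 and none to 1555, and 64 were controls. The brightest probe set of each gene left 12393 genes. Groups followed the sample titles. limma 3.58.1 (R 4.3.3; lmFit, eBayes) was fitted to all 30 arrays with 1 mean per group and 20 residual degrees of freedom, for 17 two-sided contrasts, each adjusted by Benjamini-Hochberg over all genes. On simulated data for OIR against normoxia with 12393 genes, the fit called 34.3, 85.1 and 100% of genes changed by 0.5, 1 and 2 on the log2 scale, and 8 unchanged genes. The changed genes were drawn at random, and each gene had its own SD, the same in every group. The members' SDs, 0.459 to 1.5, exceeded the 0.18 of the median gene and differed by group, so these rates do not describe the members. No pair of arrays was identical. Arrays sharing a replicate number did not regularly deviate together (r from -0.45 to 0.45), so no pairing was used. The exception was P12 saline with untreated OIR, where r was positive throughout (0.05 to 0.45), while every other comparison had a negative lowest r.

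Members and lists were chosen with earlier results of these data known. Named beside the members were, per list and comparison, up to 3 genes with the smallest p among those that passed, and the 8 genes most correlated with the members' mean. Markers of neutrophils and microglia were named after their values were seen. The alternatives were quantile normalization, median centring, leaving out the dimmest 30% of genes, all probe sets, the next probe set, trend with robust moderation, only the groups compared, a replicate block, the lens mean as a covariate, and leaving out each array.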

Additional observations from a re-analysis of the deposited data

How the results depend on the processing

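Of 10 called results of members, 120 of 150 alternatives kept the call, 30 lost it and 0 turned its direction. Quantile normalization and fitting all probe sets left the number of members called within 1.5 times in every comparison. With only the groups compared, the number of members called was 9 (against 5) for P12 saline against normoxia, 0 for P5 saline against normoxia, 3 (against 1) for P5 saline against P12 saline, 0 for P5 CD34+ against P5 saline and 0 for P5 combination against P5 CD34+. With the lens mean as a covariate it was 0 for P5 saline against normoxia and 0 for P5 saline against P12 saline. Median centring gave 2 for P5 saline against P12 saline. Leaving out the dimmest 30% of genes gave 2 there and 2 for P5 CD34+ against P5 saline, where the next probe set gave 2 and trend with robust moderation 0. Leaving out single arrays gave 0 to 1 members in OIR against normoxia, 3 to 5 in P12 saline and 0 to 1 in P5 saline against normoxia, 0 to 2 in P5 saline against P12 saline, 0 to 9 in P5 CD34+ against P5 saline, 0 to 2 in P5 combination against P5 CD34+, 0 to 5 in the CD34+ difference between days, and 0 in the other comparisons. The share of all genes called was not counted with only the groups compared or with an array left out. The cause of these changes was not tested. With a replicate block the count was the same in all 17 comparisons (5 in P12 saline against normoxia). In P5 CD34+ against P5 saline the block exchanged S100a6 (1.89, adjusted p = 0.0503, limma) for Steap4 (2.66, adjusted p = 0.0405). Arrays give no depth, and 3 retinas a group with a spread as wide as that of these genes limit what could be called. Where leaving out an array left 2 in a group, the spread was pooled over all groups.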
